A study of Homo sapiens with 18 samples.

Results

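The 37 genes described here start autophagy or choose what it degrades. They are the ULK1 complex (5 genes), the class III PI3-kinase complex with its regulators (7), proteins that build the phagophore membrane (9) and selective cargo receptors (16). They were taken by gene symbol from a table in which the TPM (a length-scaled share of a library's RNA) of all transcripts of a gene were added up, and all 37 were found among its 57865 genes. The values come from large-RNA sequencing of HEK293T, an established human embryonic kidney cell line, and of the extracellular vesicles (EVs) it released. All cells, wild type included, had been kept without serum for 24 h. There were 6 groups of 3 libraries. These were EVs from ATG7-/- cells (clone F2), EVs from ATG12-/- cells (clone D9), EVs from wild-type cells, and the cells of the same 3 genotypes. Each knockout is 1 clone, so genotype and clone cannot be told apart.

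In autophagy the ULK1 kinase complex, set free when nutrients fall, activates a lipid kinase complex that makes PI3P on a membrane near the endoplasmic reticulum. PI3P-binding WIPI proteins, the lipid transfer proteins ATG2A and ATG2B and the scramblase ATG9A then let that membrane grow into a cup, the phagophore. ATG7 and ATG12, the genes deleted here, act in the next step, in which LC3 and related proteins are attached to the membrane. Cargo receptors bind both LC3 and a cargo such as ubiquitinated protein, ferritin or a piece of a mitochondrion, and are degraded with it. Receptor proteins such as SQSTM1 (p62) are therefore known to build up when LC3 attachment is lost, while the values below are of RNA.

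No gene of the 35 tested in EVs or the 34 tested in cells passed the threshold (adjusted p under 0.05, limma) between knockout and wild type. Few genes passed at all. Of all genes tested, 0.141% passed in ATG7-/- EVs and 0.105% in ATG12-/- EVs. In cells these shares were 0.2% for ATG7-/- and 0.134% for ATG12-/-. Within a genotype, 9 of the 37 genes differed between EVs and cells. In ATG7-/- and in wild type, 4 of 36 tested were higher in EVs and 2 lower. In ATG12-/-, 3 were higher and 0 lower. Of all genes tested, 2.71% were higher and 8.69% lower in ATG7-/-, and 2.27% higher and 8.9% lower in ATG12-/-. In wild type these shares were 4.03% and 20.7%. RB1CC1 was higher in EVs than in cells in all 3 genotypes, SQSTM1 and PHB2 in both knockouts, and WDR45 in ATG7-/- and wild type. WDR45B and TEX264 were higher in EVs, and ATG14 lower, in wild type. CCPG1 was lower in EVs in ATG7-/- and wild type, and VMP1 in ATG7-/-. In 26 of the 37 genes the transcript model with the most TPM was shorter than 1000 nt. Among the 35 genes averaging 1 TPM or more this held for 26, against 58.1% of 12432 protein-coding genes at that level.

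The number of reads per library cannot be had from TPM, so counting error is unknown and the spread between libraries is the error used throughout. EV libraries held 13255 to 14716 genes at 1 TPM or more, and cell libraries 18464 to 20509. The kit was stranded, but the strand setting behind the TPM is not given in the sources used here. If it was set to the opposite strand, every value below measures the other strand or stray reads, and the genes annotated on the other strand are therefore described at the end. RNA of both deleted genes was still listed in the knockout cells. ATG7 ranged over 11.2 to 15.6 TPM in ATG7-/- EVs and 13.3 to 19.45 TPM in wild-type EVs, and over 8.06 to 12.9 TPM in ATG7-/- cells and 8.14 to 13.1 TPM in wild-type cells. ATG12 ranged over 0 to 0.858 TPM in ATG12-/- EVs and 0.844 to 22.6 TPM in wild-type EVs, and over 5.18 to 9.18 TPM in ATG12-/- cells and 7.61 to 13.5 TPM in wild-type cells. ATG7 overlapped between its knockout and wild type in both sample types, so its RNA level does not check the labels. ATG12 overlapped between ATG12-/- and wild-type EVs and was below all wild-type cell libraries in 2 of 3 ATG12-/- cell libraries. Of 11 markers of HEK293T, 10 averaged 1 TPM or more in EVs and 10 in cells, and ALB, HBB, CD3E and CD14, which mark hepatocytes, red cells, T cells and monocytes, were listed at 0 in all 18 libraries.

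The 37 genes together held 0.0999% of the TPM of ATG7-/- EVs, 0.121% of ATG12-/- EVs and 0.115% of wild-type EVs. They held 0.0713% in ATG7-/- cells, 0.0819% in ATG12-/- cells and 0.0648% in wild-type cells. WDR45 had the highest mean over the 18 libraries (217.6 TPM), followed by SQSTM1 (102.3 TPM) and ULK1 (61.8 TPM). The means of 21 genes were at least 10 TPM and those of 6 were under 2 TPM. Values above 0 in every library were found for 27 genes, and at least 1 TPM in every library for 19. FUNDC1 and NRBF2 were the lowest, at means of 0.339 and 0.767 TPM. Libraries of 1 group differed widely. The median coefficient of variation over the genes was 50.3% in ATG7-/- EVs, 63.1% in ATG12-/- EVs and 55.0% in wild-type EVs. Over cell libraries the median was 39.2% in ATG7-/-, 25.1% in ATG12-/- and 44.1% in wild type. Over 12432 protein-coding genes it was 64.0%, 80.9% and 76.3% in EVs and 38.6%, 32.3% and 35.8% in cells, for ATG7-/-, ATG12-/- and wild type in that order. Groups of 3 libraries that do not overlap, as given for single genes below, were common among all genes tested. After scaling, this held for 11.3% to 13.7% between knockout and wild-type EVs and 20% to 23.8% between knockout and wild-type cells. Between EVs and cells it held for 31.5% to 38%.

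**Figure D1:**
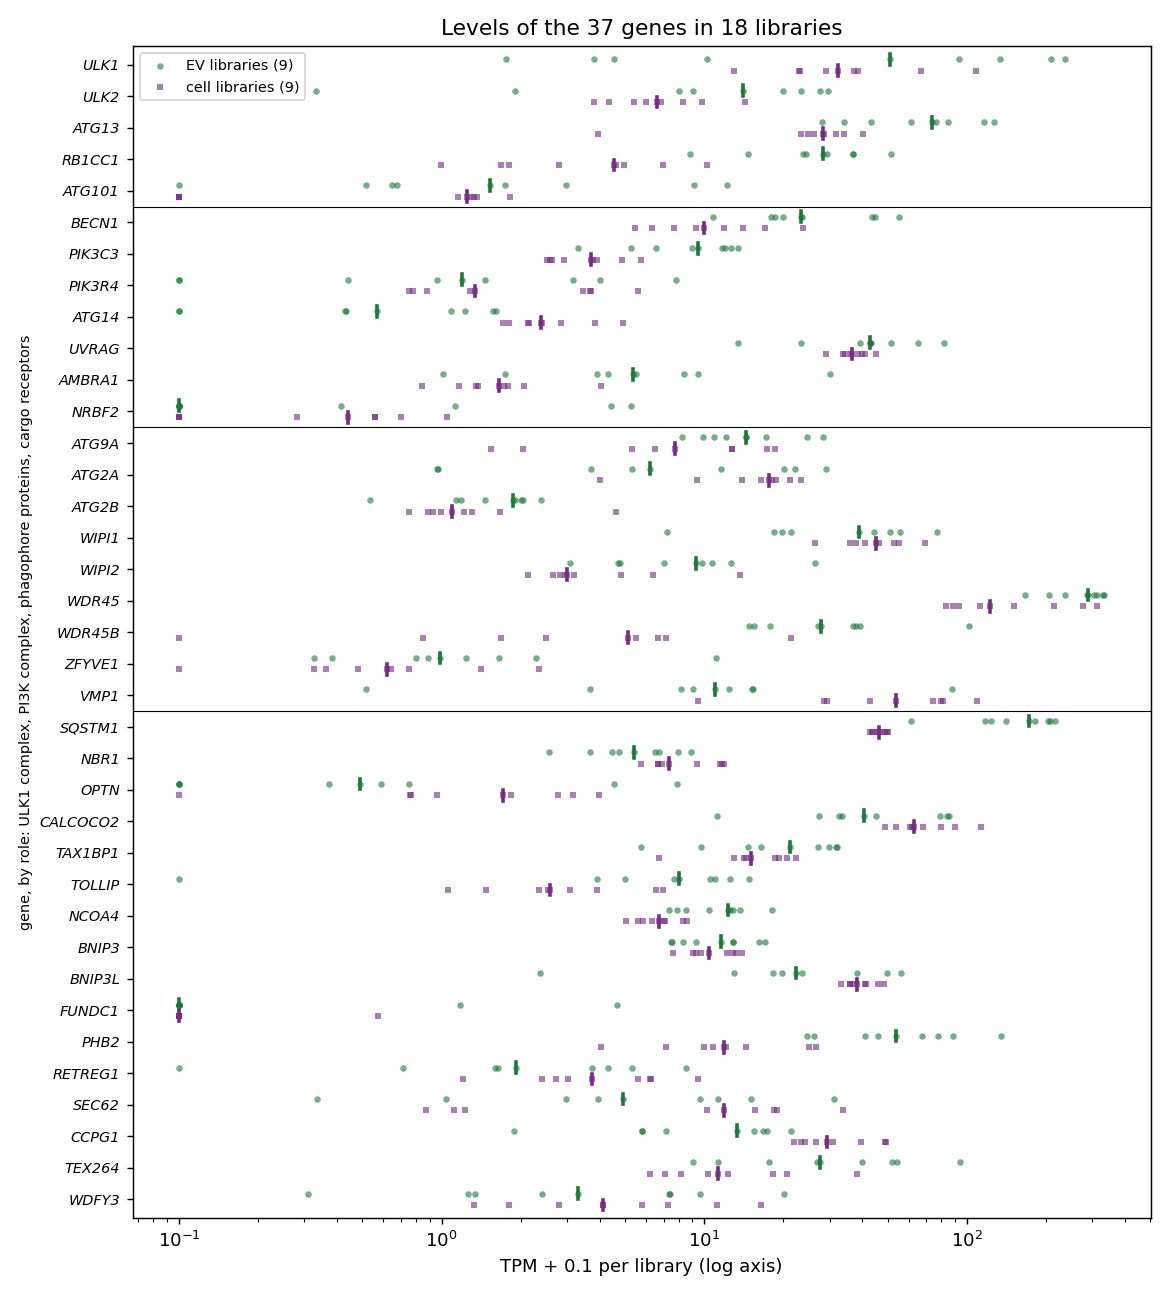
TPM of each of the 37 genes in each library, on a log axis after adding 0.1, with circles for the 9 EV libraries, squares for the 9 cell libraries and short bars for their medians; lines part the 4 roles. WDR45 has the highest median in EVs (290.1 TPM) and in cells (122.5 TPM), and FUNDC1 lies mostly at the left edge, with 15 of 18 libraries listed at 0.

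A gene sum can rest on transcript models that do not encode the protein. For each gene the transcript with the most TPM was found, and in 26 of 37 it was under 1000 nt long, with a median length of 586 nt. Among the 35 genes averaging 1 TPM or more this held for 26, and among the 12432 protein-coding genes at that level for 58.1%, with a median of 777 nt. The leading transcript was annotated as protein coding in 15 genes, as a processed transcript in 12, as a retained intron in 8 and as a target of nonsense-mediated decay in 2. Among the 35 genes averaging 1 TPM or more it was protein coding in 14, against 52.4% of the 12432 protein-coding genes. The longest coding transcript was listed at 0 in every library for 10 genes. Other coding transcripts of such a gene can still be listed. NRBF2-202 of 1816 nt held 100% of NRBF2, and TOLLIP-201 of 2283 nt led TOLLIP with 41.4%. The longest coding transcript held more than 50% of the gene in EVs for 2 genes, NBR1 and ATG2B, and in cells for ATG2B. The same shares were not computed over all protein-coding genes. The median share of the longest coding transcript over the 37 genes was 1.03% in EVs and 1.69% in cells. TPM divide reads by transcript length, so few reads on a short model give a high value, and the number of reads is unknown.

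**Figure D2:**
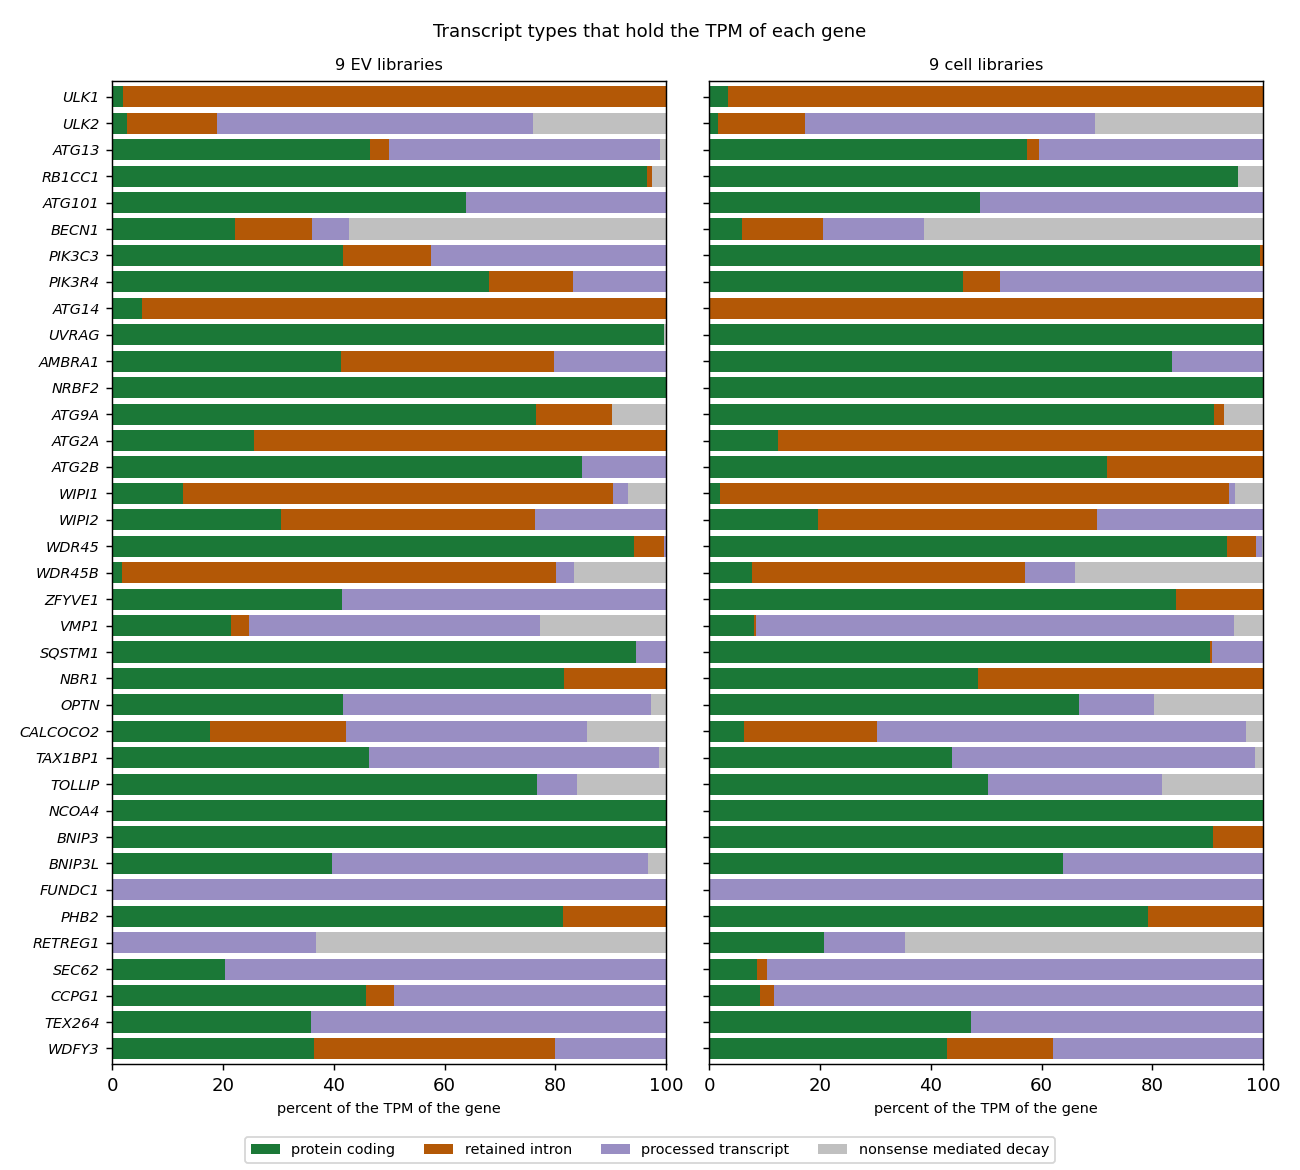
Share of the summed TPM of each gene, in percent, by annotated transcript type, over the 9 EV libraries and the 9 cell libraries. ULK1 and WIPI1 are mostly retained intron and VMP1 in cells is mostly processed transcript, while SQSTM1, WDR45 and UVRAG are mostly short models of the protein-coding type.

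Of the ULK1 complex, ULK1 and ULK2 are the kinases, RB1CC1 (FIP200) is the scaffold, and ATG13 and ATG101 are adaptor subunits. ULK1 had 4.42, 50.9 and 1.66 TPM in ATG7-/- EVs, 93.6, 10.2 and 236 TPM in ATG12-/- EVs, and 134, 3.69 and 208 TPM in wild-type EVs. ULK1 in cells came to 23.1, 66.6 and 108 TPM for ATG7-/-, 22.85, 37.2 and 28.9 TPM for ATG12-/-, and 38.6, 32.1 and 12.9 TPM for wild type. ULK1 varied more than 10-fold among the libraries of each EV group, and the groups overlapped. The retained-intron model ULK1-206, 307 nt long, held 94.8% of ULK1 in EVs and 89.8% in cells. It was listed at 0 in 4 of 9 EV libraries, which are the 4 with the lowest ULK1. The longest coding transcript, ULK1-201, averaged 1.59 ± 1.025 TPM in EVs and 1.39 ± 0.445 TPM in cells (SD, n = 9 each). The first exon of ULK1-206 is shown because this short model carries nearly the whole ULK1 value. It lies at chr12:131908619-131908817 on the plus strand (GRCh38, GENCODE 29). Capitals mark 174 of 199 bases that lie in an annotated coding sequence of the gene, and the 25 bases in lower case do not.
ULK1-206 exon 1: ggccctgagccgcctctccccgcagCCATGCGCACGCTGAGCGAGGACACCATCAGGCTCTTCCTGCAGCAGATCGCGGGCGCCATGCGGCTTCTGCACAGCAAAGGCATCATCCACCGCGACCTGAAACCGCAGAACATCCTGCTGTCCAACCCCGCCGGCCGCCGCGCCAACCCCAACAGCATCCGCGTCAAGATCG

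ATG13 had 28.03, 76.4 and 43.15 TPM in ATG7-/- EVs, 84.97, 61.4 and 126 TPM in ATG12-/- EVs, and 73.55, 34.05 and 116 TPM in wild-type EVs. For the cells, ATG13 was at 26.15, 28.5 and 23.3 TPM in ATG7-/-, 24.7, 33.9 and 39.96 TPM in ATG12-/-, and 31.7, 28.1 and 3.85 TPM in wild type. ATG13 in EVs was above its level in cells in all 3 libraries against 3 in ATG12-/- and wild type, and overlapped in ATG7-/-, all as deposited. RB1CC1 had 14.6, 23.6 and 28.1 TPM in ATG7-/- EVs, 24.2, 36.8 and 51.5 TPM in ATG12-/- EVs, and 29.2, 8.73 and 36.7 TPM in wild-type EVs. The cell values of RB1CC1 were 6.85, 4.41 and 2.696 TPM for ATG7-/-, 4.52, 10.1 and 4.83 TPM for ATG12-/-, and 0.897, 1.705 and 1.59 TPM for wild type. RB1CC1 had every EV library above every cell library in each genotype, and every knockout cell library above every wild-type cell library. Its 551-nt protein-coding model RB1CC1-203 held 87.1% of the gene in EVs and 55.6% in cells. ATG101 had 0.575, 2.87 and 0.414 TPM in ATG7-/- EVs, 1.64, 1.43 and 9.06 TPM in ATG12-/- EVs, and 12.1, 0.5503 and 0 TPM in wild-type EVs. ATG7-/- cells had 0, 1.145 and 0 TPM of ATG101, ATG12-/- cells had 1.225, 1.72 and 1.06 TPM, and wild-type cells had 1.2, 1.26 and 0 TPM. ATG101 was near or below 1 TPM in most libraries, with no order of the groups. ULK2 ranged over 0.233 to 29.4 TPM in EVs and 3.72 to 14.2 TPM in cells.

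Of the PI3-kinase complex, PIK3C3 (VPS34) makes PI3P, PIK3R4 and BECN1 are core subunits, ATG14 brings the complex to the site of autophagosome formation, and UVRAG replaces ATG14 in a complex of the endosome. AMBRA1 and NRBF2 regulate them. UVRAG had 39.1, 23.25 and 64.8 TPM in ATG7-/- EVs, 81.5, 13.3 and 43.05 TPM in ATG12-/- EVs, and 42.7, 51.3 and 42.5 TPM in wild-type EVs. Among cells, UVRAG measured 36.3, 33.6 and 45.1 TPM in ATG7-/-, 34.2, 36.2 and 28.9 TPM in ATG12-/-, and 40.8, 38.3 and 39.7 TPM in wild type. UVRAG in ATG12-/- cells lay just below wild-type cells in every library, and its EV groups overlapped. A 511-nt protein-coding model, UVRAG-204, held 90.4% of UVRAG over the 18 libraries. BECN1 had 18.5, 19.9 and 23.3 TPM in ATG7-/- EVs, 10.7, 44.8 and 55.2 TPM in ATG12-/- EVs, and 17.8, 23.5 and 43.5 TPM in wild-type EVs. BECN1 in cells came to 11.75, 23.75 and 16.95 TPM for ATG7-/-, 7.59, 6.22 and 9.201 TPM for ATG12-/-, and 5.37, 13.97 and 9.896 TPM for wild type. BECN1 in ATG12-/- EVs and in wild-type EVs lay above the cells of the same genotype, and ATG7-/- EVs overlapped ATG7-/- cells, as deposited. Its leading model, BECN1-207, is 524 nt long, annotated as a target of nonsense-mediated decay, and has 40.7% of its bases opposite exons of CNTD1.

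ATG14 had 0.466, 0.983 and 0.329 TPM in ATG7-/- EVs, 1.13, 0 and 0.333 TPM in ATG12-/- EVs, and 0, 1.47 and 1.505 TPM in wild-type EVs. For the cells, ATG14 was at 2.31, 2.06 and 2.03 TPM in ATG7-/-, 2.74, 1.71 and 1.61 TPM in ATG12-/-, and 3.74, 2.29 and 4.82 TPM in wild type. ATG14 was lower in every EV library than in every cell library of the same genotype. Nearly all of it (98.9%) was ATG14-202, a retained-intron model of 4689 nt. NRBF2 had 1.03, 0 and 0.315 TPM in ATG7-/- EVs, 0, 0 and 0 TPM in ATG12-/- EVs, and 0, 4.298 and 5.17 TPM in wild-type EVs. The cell values of NRBF2 were 0.458, 0.598 and 0.952 TPM for ATG7-/-, 0, 0.341 and 0 TPM for ATG12-/-, and 0.4555, 0.182 and 0 TPM for wild type. NRBF2 was listed at 0 in all 3 ATG12-/- EV libraries and reached 4 TPM in 2 wild-type EV libraries. The other genes of the complex ranged over 3.201 to 13.4 TPM in EVs and 2.42 to 5.64 TPM in cells for PIK3C3. AMBRA1 ranged over 0.9097 to 29.9 TPM in EVs and 0.741 to 3.93 TPM in cells. PIK3R4 ranged over 0 to 7.68 TPM in EVs and 0.654 to 5.505 TPM in cells.

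Of the phagophore proteins, WIPI1, WIPI2, WDR45B (WIPI3) and WDR45 (WIPI4) bind PI3P, as does ZFYVE1 (DFCP1), ATG2A and ATG2B carry lipids, and ATG9A and VMP1 are scramblases. WDR45 had 312, 205 and 237 TPM in ATG7-/- EVs, 329.8, 166 and 290.1 TPM in ATG12-/- EVs, and 333, 285.5 and 304 TPM in wild-type EVs. ATG7-/- cells had 83.4, 88.7 and 150.5 TPM of WDR45, ATG12-/- cells had 215, 313 and 276 TPM, and wild-type cells had 112, 93.5 and 122.5 TPM. WDR45 overlapped among the 3 EV groups, while ATG12-/- cells lay above the cells of both other genotypes. The 422-nt protein-coding model WDR45-225 held 86.1% of WDR45 in EVs and 77.7% in cells. WDR45-225 had 62.8, 58.4 and 108 TPM in ATG7-/- cells, 194, 262 and 222 TPM in ATG12-/- cells, and 83.9, 54.8 and 83.75 TPM in wild-type cells. The libraries of ATG12-/- cells lay above the others on this short model too. Its second exon is shown for that reason, at chrX:49075136-49075281 on the minus strand (GRCh38, GENCODE 29), 146 bases, all in capitals because all lie in an annotated coding sequence of the gene.
WDR45-225 exon 2: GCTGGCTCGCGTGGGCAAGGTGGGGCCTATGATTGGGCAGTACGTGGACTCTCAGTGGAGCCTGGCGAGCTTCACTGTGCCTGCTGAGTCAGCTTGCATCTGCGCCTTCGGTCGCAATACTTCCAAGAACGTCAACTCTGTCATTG

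WDR45B had 102, 17.7 and 15.3 TPM in ATG7-/- EVs, 38.9, 36.6 and 27.7 TPM in ATG12-/- EVs, and 37.8, 26.9 and 14.7 TPM in wild-type EVs. Among cells, WDR45B measured 21.3, 2.404 and 5.04 TPM in ATG7-/-, 5.39, 6.58 and 7.08 TPM in ATG12-/-, and 0, 1.58 and 0.752 TPM in wild type. WDR45B was lowest in wild-type cells, with every library under 2 TPM, and its cell groups of both knockouts lay above them. Its leading model, the 654-nt retained intron WDR45B-207, averaged 19.3 TPM in EVs and 1.10 TPM in cells. The library of 101.8 TPM, replicate 1 of ATG7-/- EVs, drew 75.45 TPM from another retained intron of 252 nt, WDR45B-210. VMP1 had 0.417, 15.05 and 15.2 TPM in ATG7-/- EVs, 3.59, 87.9 and 10.9 TPM in ATG12-/- EVs, and 8.06, 12.3 and 8.99 TPM in wild-type EVs. VMP1 in cells came to 80.85, 42.5 and 109.6 TPM for ATG7-/-, 28.4, 74.2 and 79.3 TPM for ATG12-/-, and 53.6, 9.375 and 29.1 TPM for wild type. VMP1 was lower in all ATG7-/- EVs than in all ATG7-/- cells, and 1 ATG12-/- EV library stood at 87.9 TPM beside others of 3.59 and 10.9 TPM. The 231-nt processed transcript VMP1-209 held 47.3% of VMP1 in EVs, 86.2% in cells and 76.8 of those 87.9 TPM. WIPI1 had 38.7, 7.08 and 19.7 TPM in ATG7-/- EVs, 55.3, 21.3 and 44.2 TPM in ATG12-/- EVs, and 50.9, 77.04 and 18.3 TPM in wild-type EVs. For the cells, WIPI1 was at 40.9, 44.85 and 26.35 TPM in ATG7-/-, 52.5, 37.7 and 35.7 TPM in ATG12-/-, and 68.9, 46.3 and 54.95 TPM in wild type. WIPI1 overlapped among all EV groups, and ATG7-/- cells lay below wild-type cells.

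ATG2A had 22.1, 5.21 and 11.5 TPM in ATG7-/- EVs, 0.869, 0.865 and 6.14 TPM in ATG12-/- EVs, and 19.95, 3.62 and 29.03 TPM in wild-type EVs. The cell values of ATG2A were 21.1, 23.3 and 3.92 TPM for ATG7-/-, 16.4, 17.6 and 9.32 TPM for ATG12-/-, and 13.9, 18.03 and 18.7 TPM for wild type. ATG2A was under 1 TPM in 2 ATG12-/- EV libraries, and the EV groups overlapped. ATG2B had 1.77, 1.09 and 2.28 TPM in ATG7-/- EVs, 1.935, 0.435 and 1.91 TPM in ATG12-/- EVs, and 1.365, 1.04 and 1.81 TPM in wild-type EVs. ATG7-/- cells had 0.7875, 1.12 and 0.9996 TPM of ATG2B, ATG12-/- cells had 1.204, 0.828 and 1.57 TPM, and wild-type cells had 0.6485, 4.53 and 0.891 TPM. ATG2B stayed under 2.5 TPM in every library but 1 of wild-type cells, and had most of its TPM on its 13684-nt coding transcript (78.5%). ATG9A ranged over 8.105 to 28.3 TPM in EVs and 1.45 to 18.5 TPM in cells, WIPI2 over 2.97 to 26.25 TPM and 2.02 to 13.6 TPM, and ZFYVE1 over 0.227 to 10.95 TPM and 0 to 2.255 TPM. ATG9A in ATG12-/- cells lay above wild-type cells in 3 libraries against 3.

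The cargo receptors are led by SQSTM1 (p62), which gathers ubiquitinated proteins together with NBR1, TAX1BP1, OPTN and CALCOCO2 (NDP52). SQSTM1 had 203, 208 and 172.5 TPM in ATG7-/- EVs, 140.4, 217 and 181.5 TPM in ATG12-/- EVs, and 61.3, 117 and 123 TPM in wild-type EVs. Among cells, SQSTM1 measured 43.9, 46.3 and 50.15 TPM in ATG7-/-, 47.7, 48.9 and 49.4 TPM in ATG12-/-, and 45.3, 43.3 and 42.6 TPM in wild type. SQSTM1 was higher in every ATG7-/- and ATG12-/- EV library than in every wild-type EV library, and the 9 cell libraries spanned only 42.6 to 50.15 TPM. An 842-nt protein-coding model, SQSTM1-215, held 82.9% of SQSTM1 in EVs and 71.1% in cells. SQSTM1-215 had 189.7, 195 and 164 TPM in ATG7-/- EVs, 117, 125.5 and 143 TPM in ATG12-/- EVs, and 46.97, 89.6 and 109.6 TPM in wild-type EVs. The longest coding model of SQSTM1, SQSTM1-202 of 2986 nt, was much lower. SQSTM1-202 had 8.56, 8.102 and 4.07 TPM in ATG7-/- EVs, 2.83, 7.22 and 2.68 TPM in ATG12-/- EVs, and 12.04, 9.635 and 9.898 TPM in wild-type EVs. Every knockout EV library of SQSTM1-202 lay below every wild-type EV library, opposite to the gene sum, and single transcripts were not tested. The last exon of SQSTM1-215 is shown because the SQSTM1 results rest on this model. It lies at chr5:179825146-179825226 on the plus strand (GRCh38, GENCODE 29), and all 81 bases are in capitals because they lie in an annotated coding sequence.
SQSTM1-215 exon 6: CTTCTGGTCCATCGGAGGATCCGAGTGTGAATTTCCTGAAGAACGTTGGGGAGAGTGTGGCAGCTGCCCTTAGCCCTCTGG

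CALCOCO2 had 32.4, 27.2 and 33.3 TPM in ATG7-/- EVs, 11.1, 85.6 and 45.1 TPM in ATG12-/- EVs, and 40.4, 78.6 and 84.2 TPM in wild-type EVs. CALCOCO2 in cells came to 60.6, 68.1 and 61.5 TPM for ATG7-/-, 53.4, 62.9 and 48.55 TPM for ATG12-/-, and 113, 79.3 and 89.97 TPM for wild type. CALCOCO2 was lower in ATG7-/- EVs than in wild-type EVs, and lower in the cells of both knockouts than in wild-type cells, in 3 libraries against 3 each time. NBR1 had 6.42, 6.61 and 4.64 TPM in ATG7-/- EVs, 4.34, 3.59 and 2.46 TPM in ATG12-/- EVs, and 8.83, 5.299 and 7.84 TPM in wild-type EVs. For the cells, NBR1 was at 5.64, 11.8 and 7.26 TPM in ATG7-/-, 6.785, 6.59 and 6.555 TPM in ATG12-/-, and 11.4, 9.27 and 11.5 TPM in wild type. NBR1 was lower in ATG12-/- EVs than in wild-type EVs and in ATG12-/- cells than in wild-type cells, with no overlap. TAX1BP1 had 14.6, 16.3 and 31.8 TPM in ATG7-/- EVs, 31.7, 5.65 and 27.02 TPM in ATG12-/- EVs, and 9.61, 21.2 and 29.7 TPM in wild-type EVs. The cell values of TAX1BP1 were 14.1, 22.2 and 14.9 TPM for ATG7-/-, 20.5, 12.9 and 19.2 TPM for ATG12-/-, and 18.4, 6.63 and 14.3 TPM for wild type. TAX1BP1 showed no order of the groups. OPTN ranged over 0 to 7.78 TPM in EVs and 0 to 3.86 TPM in cells, and TOLLIP, a receptor of ubiquitinated protein, over 0 to 14.7 TPM and 0.958 to 6.88 TPM.

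PHB2, a protein of the inner mitochondrial membrane, BNIP3, BNIP3L (NIX) and FUNDC1 mark mitochondria for removal, and NCOA4 delivers ferritin. PHB2 had 45.9, 67.1 and 134.5 TPM in ATG7-/- EVs, 77.8, 53.4 and 88.5 TPM in ATG12-/- EVs, and 25.98, 41.01 and 24.45 TPM in wild-type EVs. ATG7-/- cells had 11.96, 11.8 and 7.04 TPM of PHB2, ATG12-/- cells had 14.3, 10.7 and 26.5 TPM, and wild-type cells had 3.95, 9.91 and 25.05 TPM. PHB2 was higher in every knockout EV library than in every wild-type EV library, and its cell groups overlapped. PHB2-212, of 309 nt, was listed at 0 in 14 of 18 libraries and made up 93.3 of the 134.5 TPM of the highest one. Its second exon is shown because this model led the gene with 28.6% of its TPM. It lies at chr12:6967171-6967335 on the minus strand (GRCh38, GENCODE 29), and all 165 bases are in capitals because they lie in an annotated coding sequence.
PHB2-212 exon 2: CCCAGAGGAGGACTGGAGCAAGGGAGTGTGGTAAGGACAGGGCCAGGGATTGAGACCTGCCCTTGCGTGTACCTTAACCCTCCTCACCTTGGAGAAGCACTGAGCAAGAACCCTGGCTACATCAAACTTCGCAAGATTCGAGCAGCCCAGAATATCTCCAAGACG

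BNIP3 had 7.42, 7.38 and 8.199 TPM in ATG7-/- EVs, 9.202, 16.05 and 16.9 TPM in ATG12-/- EVs, and 12.75, 12.7 and 11.45 TPM in wild-type EVs. Among cells, BNIP3 measured 12.1, 10.35 and 8.93 TPM in ATG7-/-, 9.19, 9.596 and 7.535 TPM in ATG12-/-, and 13.8, 12.8 and 13.1 TPM in wild type. BNIP3 was lower in ATG7-/- EVs than in wild-type EVs and lower in the cells of both knockouts than in wild-type cells, with no overlap. Of all genes, 13.7% did not overlap after scaling in that EV comparison, and 20% and 23.8% in those of ATG7-/- and ATG12-/- cells. NCOA4 had 18.1, 13.6 and 12.5 TPM in ATG7-/- EVs, 7.255, 7.75 and 8.43 TPM in ATG12-/- EVs, and 10.4, 12.2 and 12.7 TPM in wild-type EVs. NCOA4 in cells came to 5.76, 6.21 and 6.91 TPM for ATG7-/-, 8.52, 8.17 and 7.02 TPM for ATG12-/-, and 5.51, 6.62 and 4.93 TPM for wild type. NCOA4 in ATG12-/- was below wild type in EVs and above wild type in cells, with no overlap in either as deposited. Only the 3 ATG12-/- cell libraries listed the coding model NCOA4-204 above 0. FUNDC1 had 1.07, 0 and 0 TPM in ATG7-/- EVs, 0, 0 and 0 TPM in ATG12-/- EVs, and 4.56, 0 and 0 TPM in wild-type EVs. FUNDC1 was listed at 0 in 8 of 9 cell libraries and at 0.475 TPM in replicate 3 of wild-type cells, too low to be tested in any comparison. BNIP3L ranged over 2.27 to 56.1 TPM in EVs and 33.2 to 48.05 TPM in cells.

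TEX264, CCPG1, RETREG1 (FAM134B) and SEC62 are receptors for the endoplasmic reticulum, and WDFY3 (ALFY) is a scaffold for protein aggregates. TEX264 had 39.7, 11.2 and 8.945 TPM in ATG7-/- EVs, 53.97, 17.5 and 27.55 TPM in ATG12-/- EVs, and 26.7, 94.03 and 51.8 TPM in wild-type EVs. For the cells, TEX264 was at 8.06, 18.2 and 6.13 TPM in ATG7-/-, 12.3, 37.99 and 20.5 TPM in ATG12-/-, and 10.3, 6.965 and 11.15 TPM in wild type. TEX264 was spread more than 3-fold in each EV group. Its leading model, the 322-nt processed transcript TEX264-212, was listed at 0 in all 3 ATG7-/- EV libraries and at 72.7 TPM in the highest wild-type EV library. CCPG1 had 5.69, 13.3 and 5.697 TPM in ATG7-/- EVs, 16.7, 17.2 and 7.04 TPM in ATG12-/- EVs, and 21.3, 1.78 and 15.4 TPM in wild-type EVs. The cell values of CCPG1 were 48.5, 21.9 and 30.9 TPM for ATG7-/-, 24.1, 23.3 and 26.45 TPM for ATG12-/-, and 49.2, 29.1 and 39.45 TPM for wild type. CCPG1 was lower in every EV library than in every cell library of the same genotype. The 549-nt processed transcript CCPG1-205 held 78.0% of it over the 18 libraries and was listed at 0 in 6 of 9 EV libraries. WDFY3 had 3.201, 19.99 and 0.211 TPM in ATG7-/- EVs, 2.304, 1.16 and 1.24 TPM in ATG12-/- EVs, and 7.275, 7.25 and 9.52 TPM in wild-type EVs. ATG7-/- cells had 7.18, 16.3 and 11.1 TPM of WDFY3, ATG12-/- cells had 1.71, 5.68 and 1.23 TPM, and wild-type cells had 4.02, 4.003 and 2.71 TPM. WDFY3 was lower in ATG12-/- EVs than in wild-type EVs, and higher in ATG7-/- cells than in wild-type cells, with no overlap. RETREG1 ranged over 0 to 8.402 TPM in EVs and 1.11 to 9.39 TPM in cells, and SEC62 over 0.234 to 31.1 TPM and 0.772 to 33.6 TPM.

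The first question of the design is whether EV RNA differed without the LC3 conjugation machinery. In ATG7-/- EVs against wild-type EVs, 0 of 35 genes tested passed the threshold, against 24 of 17076 genes in all (0.141%). Unadjusted p-values under 0.05 were reached by 2, SQSTM1 and PHB2, and by 1265 of the 17076 genes in all. SQSTM1 differed by 1.10 ± 0.34 on the log2(TPM + 1) scale (SE, n = 3 each; adjusted p = 0.4502, limma), with a 95% confidence interval of 0.34 to 1.86. PHB2 differed by 1.40 ± 0.48 (SE, adjusted p = 0.548) and TEX264 by -1.51 ± 0.70 (SE, adjusted p = 0.6801). The groups did not overlap after scaling in 6 of 35 genes, where 13.7% of all genes did not. They were SQSTM1, PHB2 and NCOA4 higher, and CALCOCO2, RETREG1 and BNIP3 lower; NCOA4 overlapped in the deposited TPM.

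In ATG12-/- EVs against wild-type EVs, 0 of 35 genes passed, against 18 of 17076 in all (0.105%). SQSTM1 differed by 0.95 ± 0.34 (SE, adjusted p = 0.548), with a 95% confidence interval of 0.19 to 1.71. PHB2 differed by 1.32 ± 0.48 (SE, adjusted p = 0.558) and ATG2A by -2.22 ± 0.91 (SE, adjusted p = 0.606). These 3 and NRBF2 had unadjusted p-values under 0.05, as did 1356 of the 17076 genes in all. The groups did not overlap in 6 of 35 genes, against 11.3% of all genes, namely SQSTM1 and PHB2 higher and RETREG1, WDFY3, NBR1 and NCOA4 lower. Both knockout comparisons use the same 3 wild-type EV libraries, so SQSTM1 and PHB2 being higher in both is not independent. With protein-coding transcripts alone, the ATG7-/- value of TEX264 turned to 0.68, and none of the settings or left-out libraries in the closing section brought a gene past the threshold between knockout and wild-type EVs.

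In cells the same question was asked of the RNA that remained behind. In ATG7-/- cells against wild-type cells, 0 of 34 genes passed, against 45 of 22471 in all (0.2%). An unadjusted p under 0.05 was found for 5 of the 34, and for 3241 of the 22471. The smallest p-values belonged to WDR45B, at 2.24 ± 0.66 (SE, adjusted p = 0.202), WDFY3, at 1.46 ± 0.46 (SE, adjusted p = 0.226), and RB1CC1, at 1.23 ± 0.40 (SE, adjusted p = 0.233). The groups did not overlap in 8 of 34 genes, against 20% of all genes. RB1CC1, WDR45B, SQSTM1 and WDFY3 were higher and WIPI1, ATG14, CALCOCO2 and BNIP3 lower, where SQSTM1 and ATG14 overlapped in the deposited TPM.

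In ATG12-/- cells against wild-type cells, 0 of 34 genes passed, against 30 of 22471 in all (0.134%). An unadjusted p under 0.05 was found for 7 of the 34, and for 3360 of the 22471. WDR45 differed by 1.31 ± 0.25 (SE, adjusted p = 0.103), with a 95% confidence interval of 0.73 to 1.89. CALCOCO2 differed by -0.73 ± 0.18 (SE, adjusted p = 0.158) and RB1CC1 by 1.59 ± 0.40 (SE, adjusted p = 0.159). The groups did not overlap in 13 of 34 genes, against 23.8% of all genes. RB1CC1, WDR45, WDR45B, ATG9A, SQSTM1, TEX264 and NCOA4 were higher, and ULK2, UVRAG, CALCOCO2, BNIP3, NBR1 and CCPG1 lower. SQSTM1 was at 0.18 ± 0.15 (SE, adjusted p = 0.615). The cells of both knockouts were set against the same 3 wild-type libraries.

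EVs and cells of 1 genotype were compared next. After scaling, the median of all 24647 genes tested lay below 0, at -0.48 in ATG7-/-, -0.54 in ATG12-/- and -0.75 in wild type, so a gene at 0 stands above the median gene. Without scaling these medians were -0.37, -0.49 and -0.48. The medians of the 36 genes tested were 0.15, 0.0016 and 0.33 with scaling. An EV holds other RNA than a cell, and a share of a library says nothing of the amount per EV or per cell.

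In ATG7-/-, 4 of 36 genes were higher in EVs and 2 lower, where 2.71% of all genes were higher and 8.69% lower. The groups did not overlap after scaling in 14 of 36 genes, against 32.4% of all genes. SQSTM1 was higher by 1.81 ± 0.27 (SE, adjusted p = 0.000764) and PHB2 by 2.56 ± 0.56 (SE, adjusted p = 0.00928). WDR45 was higher by 1.02 ± 0.29 (SE, adjusted p = 0.0318) and RB1CC1 by 1.85 ± 0.52 (SE, adjusted p = 0.0341). VMP1 was lower, at -3.53 ± 1.03 (SE, adjusted p = 0.0386), as was CCPG1, at -2.14 ± 0.64 (SE, adjusted p = 0.0421). SQSTM1 and PHB2 stayed past the threshold without any 1 library. WDR45 did not pass without EV library 1 or 3 or cell library 1 or 2, and RB1CC1 without EV library 2 or 3 or cell library 2 or 3. VMP1 did not pass without EV library 1 or any 1 cell library, nor CCPG1 without EV library 1 or 3 or any 1 cell library. With protein-coding transcripts alone CCPG1 turned to 1.31, and the VMP1 call was lost.

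In ATG12-/-, 3 of 36 genes were higher in EVs and 0 lower, where 2.27% of all genes were higher and 8.9% lower. No overlap after scaling was found in 12 of 36 genes, against 31.5% of all genes. SQSTM1 was higher by 1.70 ± 0.27 (SE, adjusted p = 0.001299), RB1CC1 by 2.24 ± 0.52 (SE, adjusted p = 0.0147) and PHB2 by 1.96 ± 0.56 (SE, adjusted p = 0.03585). A further 4 genes had lower values in EVs at an unadjusted p under 0.05, as had 5486 of the 24647 genes in all. SQSTM1 stayed past the threshold without any 1 library. RB1CC1 did not pass without cell library 1 or 3, nor PHB2 without EV library 1 or 3 or cell library 1 or 2. WDR45, higher in EVs in the other genotypes, was at -0.22 ± 0.29 (SE, adjusted p = 0.657).

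In wild type, 4 of 36 genes were higher in EVs and 2 lower, where 4.03% of all genes were higher and 20.7% lower. No overlap after scaling was found in 14 of 36 genes, against 38% of all genes. This depended on scaling. UVRAG was lower in every EV library than in every cell library after scaling, and higher as deposited. As deposited, PIK3C3, TOLLIP, BECN1, SQSTM1, ATG13 and ATG9A were also higher without overlap, while VMP1 and CALCOCO2, lower after scaling, overlapped. RB1CC1 was higher by 2.85 ± 0.52 (SE, adjusted p = 0.00161) and WDR45B by 3.62 ± 0.73 (SE, adjusted p = 0.00295). WDR45 was higher by 0.99 ± 0.29 (SE, adjusted p = 0.02105) and TEX264 by 1.86 ± 0.62 (SE, adjusted p = 0.0413). ATG14 was lower, at -1.58 ± 0.41 (SE, adjusted p = 0.0129), as was CCPG1, at -2.42 ± 0.64 (SE, adjusted p = 0.0132). RB1CC1, WDR45B and CCPG1 stayed past the threshold without any 1 library. WDR45 did not pass without EV library 1 or cell library 2, nor ATG14 without EV library 1 or cell library 3, nor TEX264 without EV library 2 or 3 or any 1 cell library. With protein-coding transcripts alone WDR45B turned to -0.17 and TEX264 to -0.91. SQSTM1 was at 0.63 ± 0.27 (SE, adjusted p = 0.104) and passed without scaling, when 8 genes were higher, with TMM scaling, and without EV library 1.

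**Figure D3:**
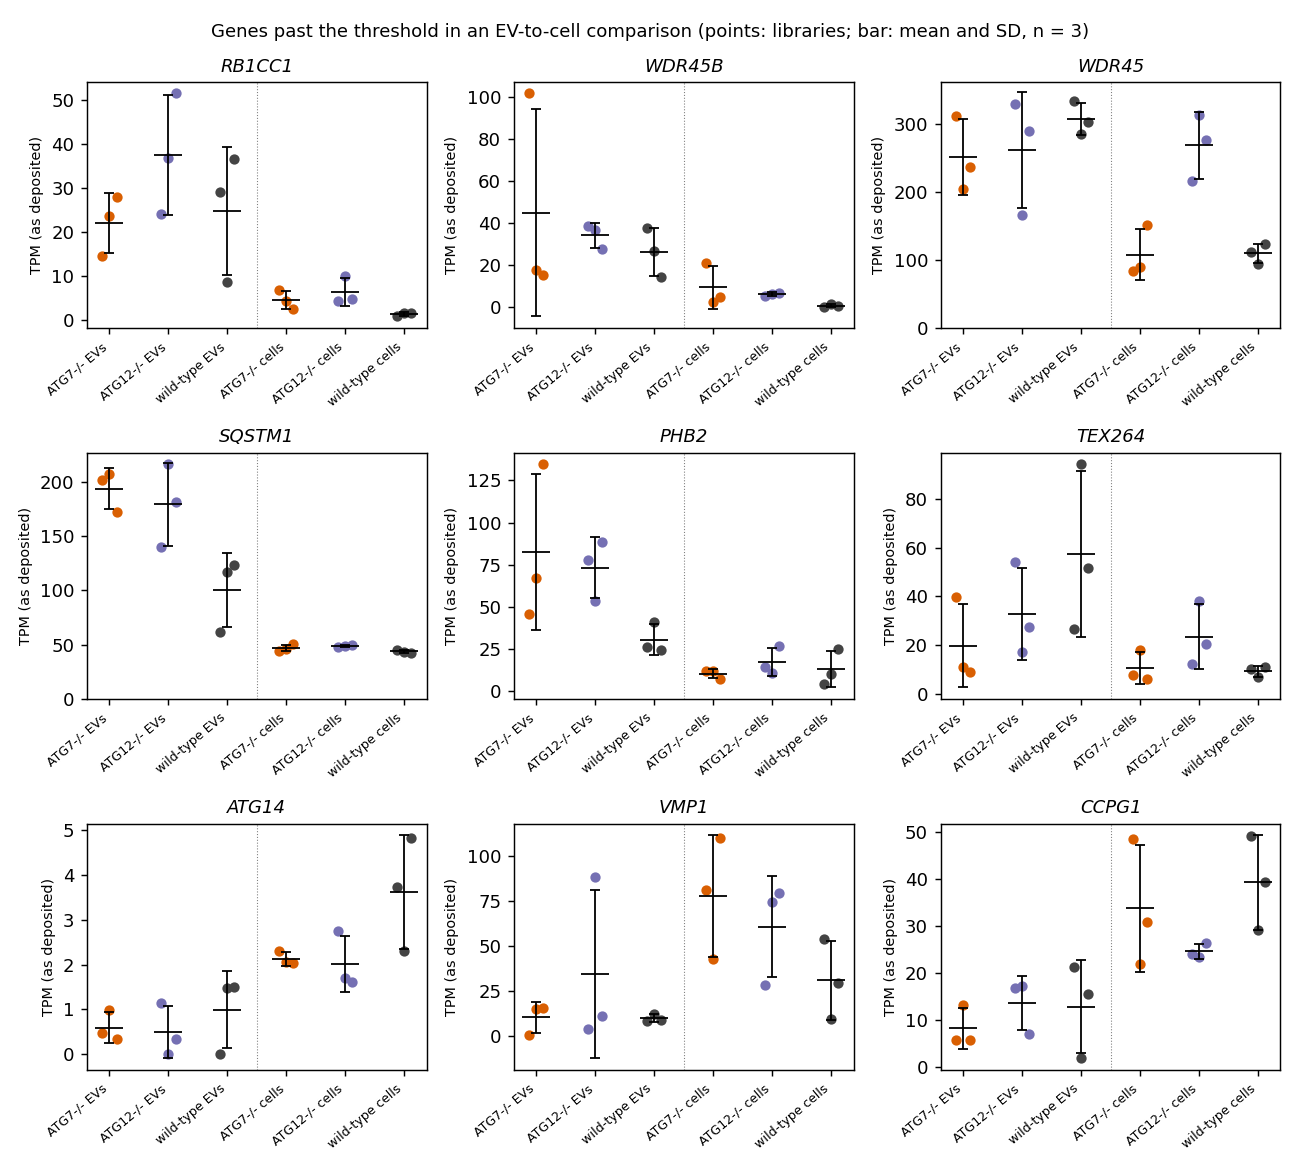
TPM as deposited of the 9 genes that passed the threshold in a comparison of EVs with cells, with a point per library and bars for mean and SD (n = 3), EVs left and cells right of the dotted line. RB1CC1 lies higher in EVs than in cells in each genotype, SQSTM1 stays between 42.6 and 50.15 TPM in cells, and a single ATG12-/- EV library of VMP1 stands at 87.9 TPM.

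**Figure D4:**
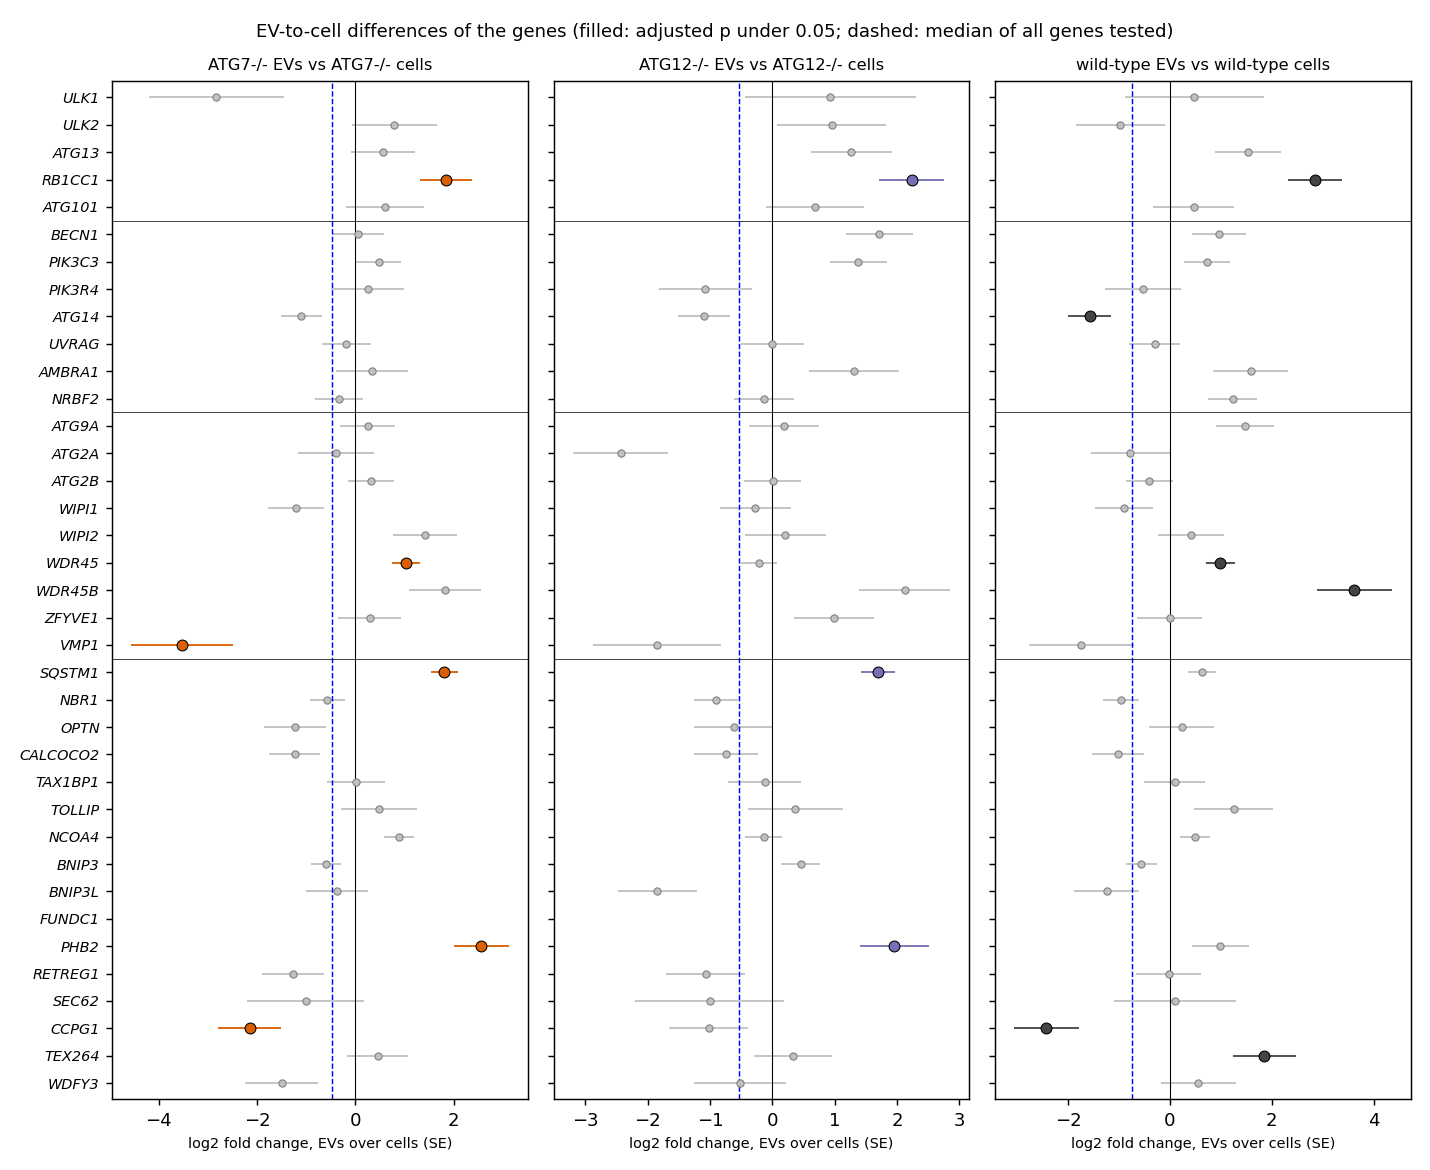
Log2 fold change of EVs over cells for the 36 genes tested, with its SE, in 3 panels by genotype; filled points have an adjusted p under 0.05, the dashed line is the median of all genes tested, and FUNDC1 was not tested. RB1CC1 is filled in all 3 panels, and SQSTM1 in both knockouts.

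Whether the EV-to-cell difference itself differed between a knockout and wild type was tested as an interaction. After scaling, the median of all 24647 genes tested lay above 0, at 0.22 for ATG7-/- and 0.19 for ATG12-/-. Without scaling these medians were 0.056 and -0.037, so part of a value above 0 depends on scaling. For ATG7-/-, 0 of 36 genes passed, against 70 of 24647 in all (0.284%). An unadjusted p under 0.05 was found for 2 of the 36, and for 2196 of the 24647. SQSTM1 had an EV-to-cell difference larger by 1.18 ± 0.39 (SE, adjusted p = 0.332) in ATG7-/- than in wild type. NRBF2 was at -1.56 ± 0.69 (SE, adjusted p = 0.527) and PHB2 at 1.58 ± 0.79 (SE, adjusted p = 0.585). NRBF2 passed without EV library 1 of wild type, at -2.32 (adjusted p = 0.044), and its wild-type EV values otherwise hold a 0 beside 4.30 and 5.17 TPM.

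For ATG12-/-, 0 of 36 genes passed, against 66 of 24647 in all (0.268%). An unadjusted p under 0.05 was found for 3 of the 36, and for 2501 of the 24647. WDR45 was at -1.21 ± 0.40 (SE, adjusted p = 0.3298) and had its high level in ATG12-/- cells. SQSTM1 was at 1.07 ± 0.39 (SE, adjusted p = 0.368) and BNIP3 at 1.01 ± 0.44 (SE, adjusted p = 0.4498). The larger EV-to-cell difference of SQSTM1 in the knockouts thus did not pass the adjusted threshold, and its 95% confidence intervals were 0.36 to 2.00 in ATG7-/- and 0.25 to 1.90 in ATG12-/-.

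Genes that act around the 37 were counted in 5 lists, and in the 4 knockout comparisons and both interactions 0 genes of any list passed. Of all genes tested, 0.105% to 0.2% passed in the knockout comparisons, and 0.284% and 0.268% in the interactions. The shares higher in EVs than in cells were 2.71% in ATG7-/-, 2.27% in ATG12-/- and 4.03% in wild type. The shares lower in EVs were 8.69%, 8.9% and 20.7% in the same order. Between EVs and cells, RHEB, the GTPase that activates mTORC1, was higher in EVs in each genotype among 19 of 20 upstream regulators tested. RHEB differed by 1.37 ± 0.38 in ATG7-/-, 1.55 ± 0.38 in ATG12-/- and 2.496 ± 0.38 in wild type (SE, adjusted p = 0.0296, 0.0175 and 0.000412). In wild type RRAGA and STK11 were also higher. RTN3, a receptor for tubules of the endoplasmic reticulum, was the only gene to pass among 11 of 14 other receptors and partners tested. RTN3 had 44.95, 25.9 and 25.4 TPM in ATG7-/- EVs, 65.55, 69.7 and 52.35 TPM in ATG12-/- EVs, and 101, 97.04 and 109 TPM in wild-type EVs. Among cells, RTN3 measured 9.05, 9.09 and 7.43 TPM in ATG7-/-, 9.37, 20.6 and 19.4 TPM in ATG12-/-, and 10.2, 3.15 and 4.64 TPM in wild type. RTN3 in EVs lay above cells in every genotype, and both knockouts lay below wild type in EVs. Of 16 LC3 conjugation and ATG8 genes tested, ATG10 passed in all 3 genotypes and was higher in EVs. ATG10 was listed at 1656 to 2821 TPM in EVs and 590.9 to 877.5 TPM in cells, far above any of the 37 genes. Which of its transcript models hold this value was not described. GABARAP, an ATG8 protein, was higher in ATG12-/- and wild type, ATG12 was lower in ATG12-/-, and ATG16L2 was lower in wild type. None of 8 PI3P phosphatases and inhibitors of initiation tested passed, nor any of 16 genes of fusion with the lysosome.

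Because the strand setting is not given, genes whose exons share bases with the 37 on the other strand were looked up in GENCODE 29. There were 24 such pairs for 18 of the 37 genes, and for 9 the gene on the other strand had the higher mean. VMP1 averaged 18.04 TPM in EVs and 56.3 TPM in cells, and PTRH2, opposite to it with 162 shared bases, averaged 222.8 TPM in EVs and 282.5 TPM in cells. ATG101 averaged 3.18 TPM in EVs and 0.845 TPM in cells, and AC025259.1, whose exons lie to 94.9% opposite ATG101, averaged 58.7 TPM in EVs and 28.3 TPM in cells. WDFY3 averaged 5.795 TPM in EVs and 5.99 TPM in cells, and WDFY3-AS1 34.4 TPM in EVs and 49.3 TPM in cells.

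The other 6 genes with a higher partner were closer to it, as means over the 18 libraries. BECN1 averaged 20.1 TPM, its partners PSME3 32.75 TPM and CNTD1 24.1 TPM. NBR1 averaged 7.05 TPM and AC060780.1 21.3 TPM, and ATG2B 1.46 TPM and GSKIP 2.69 TPM. ATG13 averaged 49.1 TPM and HARBI1 52.0 TPM, TAX1BP1 18.4 TPM and AC005091.1 22.5 TPM, and WDR45B 20.4 TPM and FOXK2 21.8 TPM. SQSTM1 lies opposite MRNIP, with 1582 shared bases, and MGAT4B, with 105. MRNIP had 63.9, 73.1 and 45.7 TPM in ATG7-/- EVs and 90.45, 43.65 and 71.35 TPM in ATG12-/- EVs. It had 28.2, 54.7 and 64.0 TPM in wild-type EVs, so both knockouts overlapped wild type. In EVs MGAT4B had 67.5, 65.9 and 136.3 TPM in ATG7-/-, 89.0, 49.8 and 124.8 TPM in ATG12-/-, and 35.3, 64.0 and 34.1 TPM in wild type. Its EV groups overlapped for ATG12-/- and not for ATG7-/-, and 12.5% of SQSTM1-215 lies opposite its exons. The part of these partners in the values of the 37 genes was not tested. RB1CC1, WDR45, TEX264 and ATG14 share no exon bases with a gene on the other strand.

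**Figure D5:**
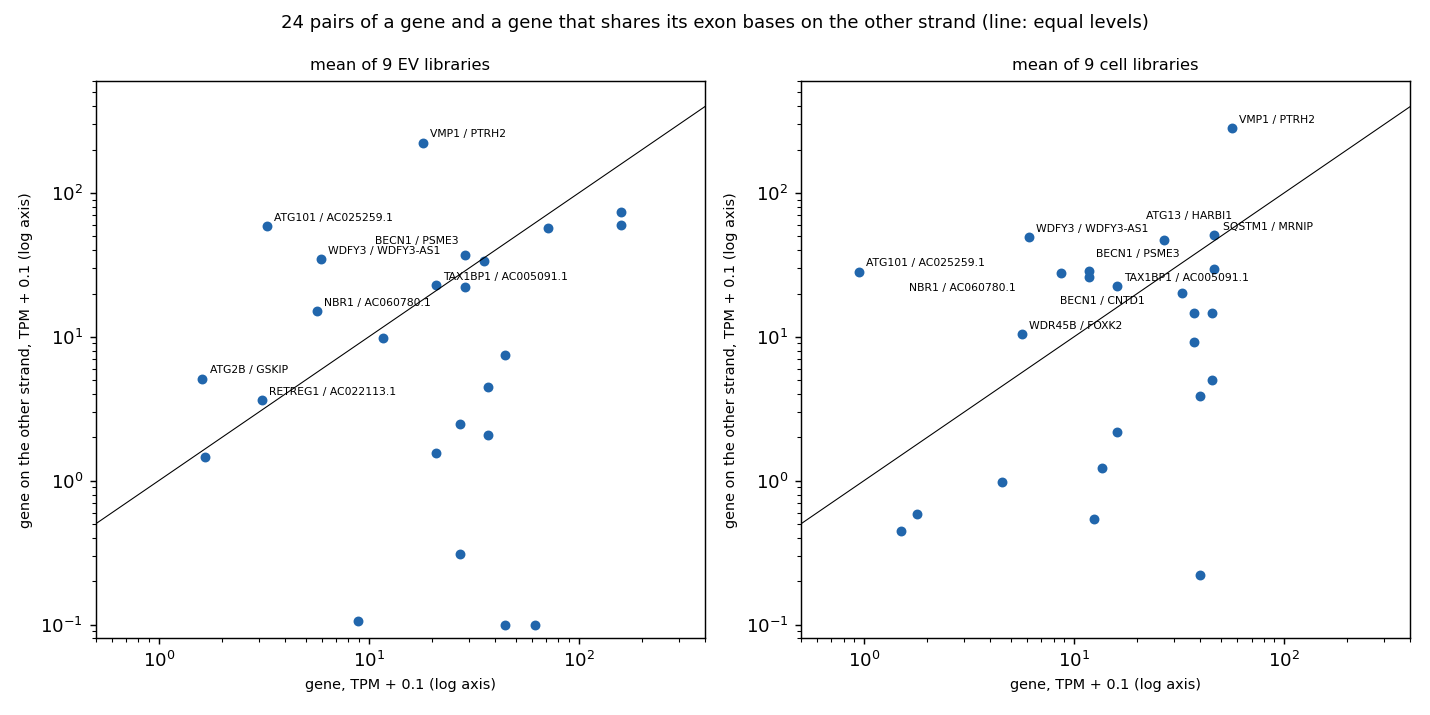
Mean TPM of each gene (x) and of a gene that shares its exon bases on the other strand (y), after adding 0.1, on log axes, over 9 EV libraries and 9 cell libraries, for 24 pairs. Named points lie above the line of equal levels, and VMP1 with PTRH2, ATG101 with AC025259.1 and WDFY3 with WDFY3-AS1 lie farthest above it in both panels.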

How the data were processed

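Large RNA was sequenced from EVs and cells of 3 genotypes in 18 libraries (stranded total-RNA kit, per the labels' protocols). The authors deposited 1 table of TPM per transcript. Salmon 0.14 and DESeq2 appear in the submitters' processing notes without a stated role. Nothing used here gives the build, annotation, strand setting or depth behind the TPM. GENCODE 29 (GRCh38) matched 202941 of 203027 transcripts by identifier, and TPM were summed per gene symbol. The 37 genes and the pathway lists were chosen with earlier results of these data known.

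Genes that reached 1 TPM in 3 or more fitted libraries were tested with limma 3.58.1 (R 4.3.3) on log2(TPM + 1), after median-of-ratios scaling, with a mean-variance trend and Benjamini-Hochberg adjustment over all genes tested (threshold 0.05, two-sided). Knockout comparisons used the 9 EV or the 9 cell libraries, and the others all 18. Fold changes on this scale understate changes of low genes. The labels call the libraries of a group biological replicates without saying whether they came from separate cultures, so p-values measure the spread between these libraries. Transcript tables and figures were made in Python 3.11.15 with pandas 2.3.3 and matplotlib 3.10.9. The fits were tested on simulated data.

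Values of every library are given for genes past the threshold, the 3 smallest p-values of a comparison, the 2 highest means of a role, genes listed at 0 throughout a group, and genes with a higher partner on the opposite strand. NCOA4 was added after its values were seen. Alternatives were another pseudocount (0.1), no filter, no scaling, TMM scaling (written out in R), sample weights, transcript and RNA classes left out, fits within a genotype, the replicate number as a block, and each library left out.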

Additional observations from a re-analysis of the deposited data

Results flagged for a closer look

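NCOA4, the ferritin receptor, differed between EVs and cells in its direction in ATG12-/- against wild type, in the TPM as deposited. It had 7.255, 7.75 and 8.43 TPM in ATG12-/- EVs, all below the 10.4, 12.2 and 12.7 TPM of wild-type EVs. It had 8.52, 8.17 and 7.02 TPM in ATG12-/- cells, all above the 5.51, 6.62 and 4.93 TPM of wild-type cells. The coding model NCOA4-204, of 3549 nt, held 1.98, 8.17 and 7.02 TPM of this in ATG12-/- cells. That model was above 0 in only those 3 of the 18 libraries, and its part in the difference was not tested. The log2 difference between the EV and the cell effect was -0.63 ± 0.42 (SE, n = 3 libraries per group; adjusted p = 0.657, limma interaction) and did not pass the threshold. After scaling over all 18 libraries, as in this interaction, the NCOA4 cell groups overlapped. The gene was flagged by looking through the 37 for opposite directions without overlap as deposited. Of all genes, 11.3% did not overlap after scaling between ATG12-/- and wild-type EVs, and 23.8% between the cells.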

How the results depend on the processing

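The count of 0 genes between knockout and wild type, in EVs and in cells, was also 0 under every alternative run. In wild type, 1 gene was lower in EVs with a pseudocount of 0.1 and 0 with the fit on that genotype alone, while 8 were higher without scaling and 2 with sample weights. In ATG7-/-, the 2 lower genes became 1 with a pseudocount of 0.1, with TMM scaling or with protein-coding transcripts only, and 0 without the filter or without scaling. Higher genes in ATG7-/- became 2 with protein-coding transcripts only. In ATG12-/-, lower genes numbered 1 with a pseudocount of 0.1, with protein-coding transcripts only or without mitochondrial and small noncoding RNA, and 2 with sample weights, and 5 were higher without scaling. With 1 library left out, 2 to 4 genes were higher and 0 to 3 lower in ATG7-/-, 1 to 3 higher and 0 to 1 lower in ATG12-/-, and 3 to 5 higher and 1 to 2 lower in wild type; the ATG7-/- interaction gave 0 to 1. With protein-coding transcripts only, 4 values turned, TEX264 in ATG7-/- against wild-type EVs to 0.68, CCPG1 in ATG7-/- EVs against cells to 1.31, and WDR45B and TEX264 in wild type to -0.17 and -0.91; the cause was not tested. WDR45 in ATG12-/- EVs against cells ranged between -0.42 and 0.085 with 1 library left out, above 0 without ATG12-/- EV library 2; the cause was not tested. The 37 fold changes refitted were those past the threshold, those with one of the 3 smallest p-values of their comparison, and 4 others named above. Of 609 refits, 545 kept their direction and side of the threshold, 55 lost the call, 4 gained it and 5 turned. The gains were SQSTM1 in wild-type EVs against cells without scaling, with TMM scaling and without wild-type EV library 1, and NRBF2 in the ATG7-/- interaction without wild-type EV library 1. Over all genes, the 24 calls in ATG7-/- EVs became 8 without the filter and 5 with protein-coding transcripts only. The 18 in ATG12-/- EVs became 27 with a pseudocount of 0.1, 5 without the filter, 4 with sample weights, 1 with protein-coding transcripts only and 6 without mitochondrial and small noncoding RNA. Protein-coding transcripts only gave 5 calls against 45 in ATG7-/- cells and 3 against 30 in ATG12-/- cells, and 1081, 912 and 2346 between EVs and cells in ATG7-/-, ATG12-/- and wild type, against 2809, 2752 and 6086. The interactions, with 70 and 66 calls, had 27 and 29 with sample weights, 45 in ATG7-/- without scaling, and 0 and 2 with protein-coding transcripts only. With 1 library left out, calls over all genes numbered 5 to 15 in ATG7-/- EVs, where each of the 6 libraries moved the count by over 1.5 times, and 5 to 18 in ATG12-/- EVs, where ATG12-/- libraries 1 and 2 and wild-type libraries 1 and 3 did. They numbered 5 to 48 in ATG7-/- cells (ATG7-/- library 3 and wild-type libraries 1, 2 and 3) and 13 to 30 in ATG12-/- cells (wild-type libraries 1, 2 and 3). Between EVs and cells there were 1546 to 2103 in ATG7-/- (cell library 1), 1292 to 2316 in ATG12-/- (cell libraries 1, 2 and 3) and 4339 to 5306 in wild type. The interactions gave 26 to 77 for ATG7-/- and 26 to 89 for ATG12-/-, moved by over 1.5 times in both by wild-type cell libraries 1, 2 and 3 and the knockout's cell library 3.

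Same-numbered libraries of different groups showed little shared deviation, with 45 correlations between -0.034 and 0.047 and 0 of them over 0.1. These correlations do not settle whether same-numbered libraries share a culture, which the labels do not state. Pairs with different numbers were not computed beside them. With the replicate number as a block, 3 genes were higher and 2 lower in EVs in ATG7-/-, 4 higher and 0 lower in ATG12-/-, 3 higher and 2 lower in wild type, and 0 changed between knockout and wild type or in the interactions. Over all genes the block left 9 calls in ATG7-/- EVs, 3 in ATG12-/- EVs, 13 in ATG7-/- cells, 12 in ATG12-/- cells, and 45 and 46 in the interactions. TEX264 in wild type (adjusted p = 0.0544) and RB1CC1 in ATG7-/- (adjusted p = 0.0507) lost their calls under it, and BECN1 in ATG12-/- gained one. The depth is unknown, so no limit from counting is given.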
